A study of Homo sapiens with 6 samples.

Results

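LINC02381, the gene of the long noncoding RNA CyCoNP, and 9 genes around it on chromosome 12 were followed in neuroblastoma cells in which CyCoNP had been depleted. The members were chosen by gene symbol and position, as LINC02381 and genes near it in 12q13 other than the protein-coding HOXC genes. All 10 were found among the 60676 genes of the deposited tables. Beside LINC02381 they are SMUG1, with an annotated body that spans LINC02381, and genes to either side. CBX5, HNRNPA1, NFE2, COPZ1 and ZNF385A lie on the one side, and HOXC-AS1, HOTAIR and CALCOCO1 on the HOXC side. The question was whether loss of the transcript was accompanied by a change in the genes that lie beside its own gene.

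The cells were SK-N-BE, which derive from a human neuroblastoma and take on neuronal features under retinoic acid. All libraries came from cells of this 1 line held for 1.5 days in differentiation medium with 10 μM retinoic acid, and they differed in the small interfering RNA (siRNA) delivered. The 3 si-SCR libraries came from cells given a scrambled control, and the 3 si-CyCoNP libraries from cells given a pool of siRNAs directed at exon 2 of CyCoNP. An siRNA pool lowers the RNA and leaves the DNA of the locus as it was, so a neighbour could be compared without an edit of the region. Transcription of the locus was not measured, and the paper found CyCoNP mainly in the cytoplasm. An effect of the act of transcription, or of a transcript held at its site, was therefore not tested. Total counts ranged from 3762009 to 4799407 per library, and replicates correlated with r from 0.984 to 0.987 over log2 CPM, that is, counts per library total. Nothing in the labels says whether the 3 libraries of a group came from separate cultures, so the p-values measure the spread between these libraries, which may be technical.

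Of 9 markers of sympathoadrenal neuroblastoma, including TH, DBH and HAND2, all 9 had a mean of at least 1 FPKM (fragments scaled by gene length and library total) over the 6 libraries, and none of 7 markers of other cells did. The summed level of the first list was 2500 to 2960 FPKM in si-SCR and 2120 to 2300 FPKM in si-CyCoNP. Its genes did not move as one. By edgeR 6 of the 9 were called lower, beside 14.2% of all tested genes, among them CHGA (log2 fold change -1.24) and PHOX2A (-1.13). MYCN was called higher (0.84), and TH and ISL1 were not called. The summed level of the second list was 0.879 to 1.14 FPKM in si-SCR and 1.93 to 2.22 FPKM in si-CyCoNP. PECAM1, ALB and CD3E were at 0 in every library. Nearly all of the sum came from EPCAM, at 2 to 9 counts, and COL1A1, at 15 to 83 counts. COL1A1, a fibrillar collagen, was called higher (log2 fold change 1.68, edgeR adjusted p = 8.59e-06). It averaged under 1 FPKM in si-SCR and was tested only through its level in si-CyCoNP, so its presence among the tested genes is no support for a change. The part of these shifts in the results below was not tested.

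Long noncoding RNAs can act in cis, on genes next to the place where they are made, or in trans, on RNAs and genes elsewhere in the cell. The act of transcription, or a nuclear transcript held at its site, can raise or lower the promoters nearby. HOTAIR, made inside the HOXC cluster, is the textbook case of a long noncoding RNA described as acting in trans through chromatin-modifying complexes. SMUG1 and the genes on the other side of LINC02381 have everyday roles. CBX5 encodes HP1 alpha, a reader of methylated histone H3 in heterochromatin, HNRNPA1 an abundant RNA-binding protein of splicing, COPZ1 a subunit of the COPI coat of Golgi vesicles, and SMUG1 a glycosylase that removes uracil from DNA.

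In GENCODE version 44 on GRCh38, LINC02381 covers chr12:54126019-54147485 on the plus strand, and its isoform LINC02381-201, to which the study's CyCoNP primers matched, has 2 exons of 515 and 854 bases, at chr12:54126098-54126612 and chr12:54131990-54132843. The depletion was directed at the exon on the 3′ side. The stretch of CyCoNP that the study amplified to measure it by RT-qPCR is shown because it crosses the splice junction, with 25 bases in exon 1 from 54126588 and 88 bases in exon 2 up to 54132077. It occupies positions 491 to 603 of the 1369 bases of the transcript, and the capitals mark the sites of both primers.
CyCoNP amplicon: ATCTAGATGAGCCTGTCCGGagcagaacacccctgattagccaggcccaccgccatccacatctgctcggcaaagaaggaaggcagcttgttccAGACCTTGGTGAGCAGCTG

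RefSeq promoter windows on GRCh38.p14, which run from 250 bases before to 50 bases after a start site, were held for 3 of the 10 members, LINC02381, CBX5 and COPZ1. None was held for SMUG1, HNRNPA1, NFE2, ZNF385A, HOXC-AS1, HOTAIR or CALCOCO1. The windows are shown because they hold the starts of the depleted gene, of the pair CBX5 and HNRNPA1, and of the only neighbour called higher. Capitals mark matches on either strand to 6 short motifs. These were TATAAA for the TATA box, CCAAT for the CCAAT box, CACGTG for the E-box, GGGCGG for the GC box, GCATGC for the centre of the NRF1 motif, and AGGTCA for the repeat unit bound by retinoic acid receptors. The LINC02381 window, chr12:54125821-54126120 on the plus strand, is given whole. CBX5 starts on the minus strand 59 bases away from the start of HNRNPA1 on the plus strand, and the stretch from 30 bases inside one gene to 30 bases inside the other, chr12:54280104-54280222, is written on the minus strand. The COPZ1 window, chr12:54324881-54325160 on the plus strand, was ended 30 bases past its start.
LINC02381: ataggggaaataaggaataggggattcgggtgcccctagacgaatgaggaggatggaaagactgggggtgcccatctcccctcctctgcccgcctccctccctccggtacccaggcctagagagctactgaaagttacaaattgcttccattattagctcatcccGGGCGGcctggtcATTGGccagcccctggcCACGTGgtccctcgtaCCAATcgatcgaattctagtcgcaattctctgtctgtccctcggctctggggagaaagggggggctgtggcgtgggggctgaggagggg
CBX5 and HNRNPA1: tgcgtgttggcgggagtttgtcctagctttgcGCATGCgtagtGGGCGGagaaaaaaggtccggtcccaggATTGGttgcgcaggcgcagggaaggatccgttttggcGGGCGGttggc
COPZ1: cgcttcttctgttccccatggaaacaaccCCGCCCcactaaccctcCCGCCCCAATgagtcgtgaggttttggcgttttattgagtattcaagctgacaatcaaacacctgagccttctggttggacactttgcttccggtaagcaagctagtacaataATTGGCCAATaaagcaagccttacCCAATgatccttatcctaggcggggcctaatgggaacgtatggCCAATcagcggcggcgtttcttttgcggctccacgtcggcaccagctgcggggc

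The LINC02381 window held 2 matches to CCAAT, 1 to CACGTG and 1 to GGGCGG. The whole window at the CBX5 start held 1 match to CCAAT, 1 to GCATGC, 2 to GGGCGG and 2 to CACGTG, the last outside the stretch shown. It was picked from 3 windows of CBX5 because it lies beside HNRNPA1. The others each held 1 match to CCAAT and none to the rest. The COPZ1 window held 5 matches to CCAAT and 2 to GGGCGG, of which one pair shares a base. TATAAA and AGGTCA were not among the letters of any of these windows. Of all 35116 RefSeq windows, 34.6% held CCAAT, 45.0% GGGCGG, 7.26% CACGTG, 7.22% GCATGC, 11.5% TATAAA and 13.8% AGGTCA. These matches describe the letters only.

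LINC02381 itself was strongly depleted. It had counts of 274, 208 and 315 in the si-SCR libraries and 20, 30 and 12 in the si-CyCoNP libraries, which on the FPKM scale was 14.9, 12.9 and 15.4 against 0.973, 1.65 and 0.676. Every si-CyCoNP library lay far below every si-SCR library. The mean level went from 14.4 ± 1.31 to 1.1 ± 0.498 FPKM (SD, n = 3 per group). In the quasi-likelihood test of edgeR, fitted over the 13966 genes with a mean of at least 1 FPKM in either group, the log2 fold change of si-CyCoNP over si-SCR was -3.78 (95% interval -4.16 to -3.39), with a Benjamini-Hochberg adjusted p of 6.84e-14. The si-CyCoNP level was thus 7.30% of the si-SCR level (95% interval 5.57 to 9.57%) and ranked 28 from the lowest log2 fold change among the tested genes. Its exons share 1042 bases with ENSG00000260470 on the opposite strand, which stranded counting keeps apart. In bulk RNA, fewer cells that express a gene and less RNA in each of them cannot be told apart.

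None of the tested neighbours fell as far as LINC02381. A gene was called where its edgeR adjusted p was under 0.05. Of the 9 neighbours 8 passed the filter on low values, and 2 of those 8 were called, which is 25%, against 28.4% of all genes tested. COPZ1 was called higher, as were 14.2% of all tested genes, and CALCOCO1 was called lower, as were 14.2%. With edgeR, 3 of the 8 had an unadjusted p under 0.05, as had at least the 28.4% of all tested genes that were called. DESeq2 called CALCOCO1 alone, and 22.2% of all tested genes. No neighbour passed the stricter rule that adds an absolute log2 fold change above 1, which 5.26% of all tested genes passed. The si-SCR and si-CyCoNP ranges of normalised counts did not overlap in 3 of the 8, against 40.2% of all tested genes. The median log2 fold change of the 8 was 0.013, beside 0.0053 over all tested genes, and the median size of the change regardless of direction was 0.23, beside 0.31. The share of neighbours called was therefore no larger than the background.

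**Figure D1:**
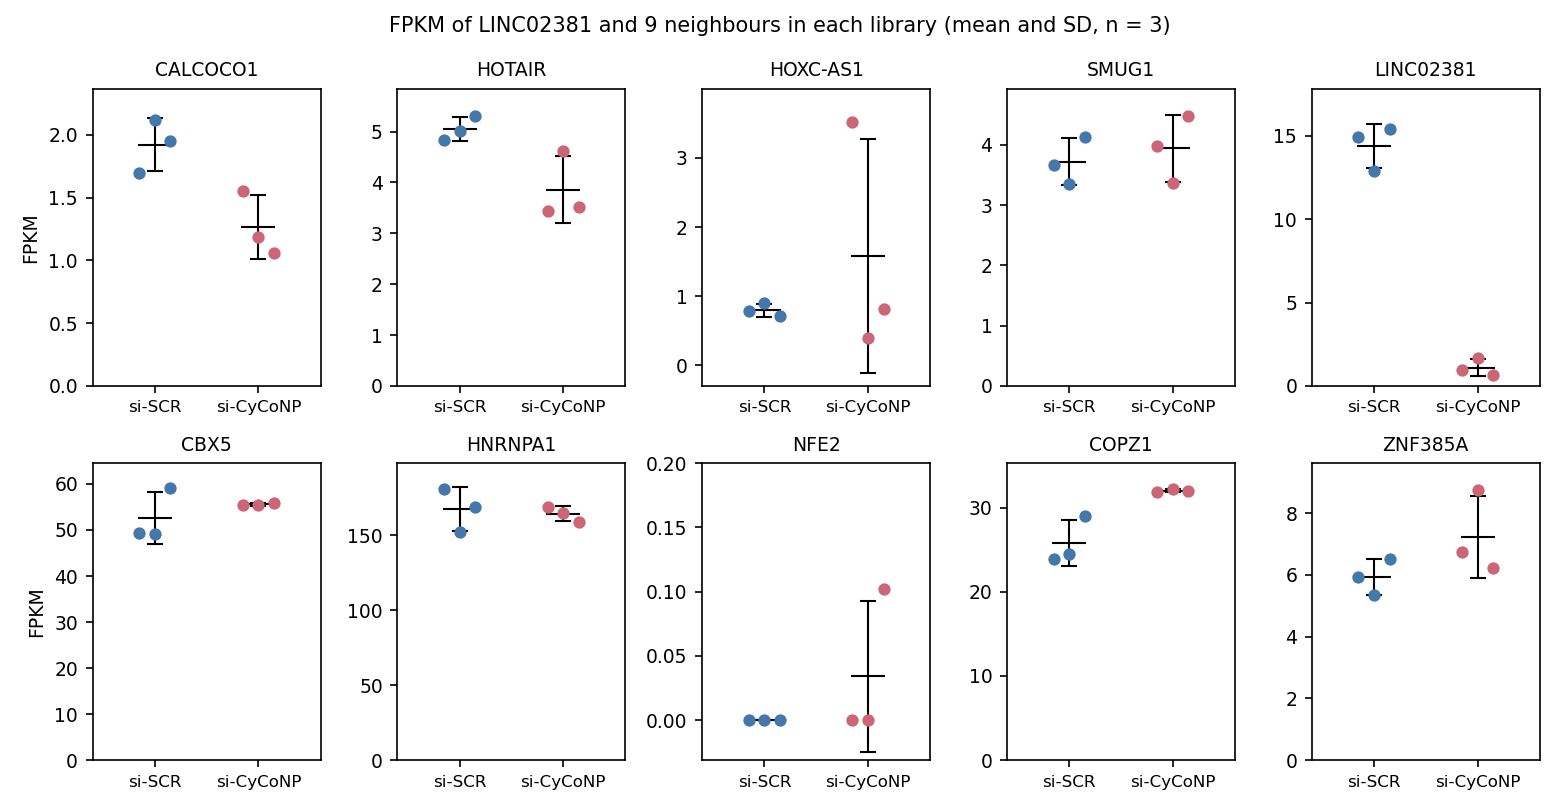
FPKM of LINC02381 and its 9 neighbours, ordered along chromosome 12, in the 3 si-SCR (blue) and 3 si-CyCoNP (red) libraries, with the mean as a horizontal line, the SD as a bar (n = 3) and an axis of its own for each gene. LINC02381 fell from 14.4 to 1.1 FPKM, whereas CBX5, HNRNPA1 and SMUG1 kept overlapping values and COPZ1 and CALCOCO1 moved apart by much less.

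SMUG1 is the gene whose annotated body contains LINC02381. It covers chr12:54121277-54189008 on the minus strand, while its canonical transcript occupies 54180366 to 54188985 only, and the 2 genes share 0 exon bases. It had counts of 95, 76 and 119 in the si-SCR libraries against 115, 86 and 112 in the si-CyCoNP libraries, or 3.67, 3.35 and 4.13 FPKM against 3.98, 3.36 and 4.48 FPKM. The groups overlapped throughout. The log2 fold change was 0.012 (95% interval -0.31 to 0.34, edgeR adjusted p = 0.968), so the interval spans 80.5 to 126% of the si-SCR level. Its direction turned to -0.047 without si-SCR replicate 2 and to -0.10 without si-CyCoNP replicate 3. Its exons share 179 bases, 2.97% of the total, with FAM242C on the same strand, which makes that small share less certain. The libraries were stranded, and on chromosome 12 a count was found for 10 of 53 genes (18.9%) wholly inside exons of the opposite strand, against 5 of 62 (8.06%) wholly inside exons of the same strand.

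CBX5 and HNRNPA1, which start back to back, were the most abundant members. CBX5 lies at chr12:54230942-54280133, 83.5 kb from LINC02381, and measured 49.3, 49.2 and 59.1 FPKM in the si-SCR libraries against 55.4, 55.4 and 55.8 FPKM in the si-CyCoNP libraries. All 3 si-CyCoNP libraries lay between the lowest and the highest si-SCR library. Its log2 fold change was 0.014 (95% interval -0.14 to 0.17, edgeR adjusted p = 0.920), and it became -0.016 without si-SCR replicate 1 and -0.024 without si-SCR replicate 2.

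HNRNPA1, at chr12:54280193-54287088 and 133 kb from LINC02381, measured 181, 152 and 169 FPKM in the si-SCR libraries against 169, 165 and 159 FPKM in the si-CyCoNP libraries. These groups overlapped as well. The log2 fold change was -0.093 (95% interval -0.25 to 0.068, edgeR adjusted p = 0.411). HNRNPA1 has many processed pseudogenes, and 15 of the 74 in the table had a count, 83 counts in all beside 22035 for HNRNPA1. Fragments that fit several places were dropped before counting, so its level may be understated. With intervals that leave out a change of 0.3 on the log2 scale in either direction, CBX5 and HNRNPA1 were the neighbours measured most precisely.

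The ratio of CBX5 to HNRNPA1 counts in a library does not depend on how libraries are scaled. Its log2 value was -0.31, -0.06 and 0.044 in the si-SCR libraries against -0.048, -0.012 and 0.053 in the si-CyCoNP libraries. The groups overlapped, with si-SCR replicates 1 and 2 below every si-CyCoNP library and si-SCR replicate 3 among them. The group means differed by 0.11, which an exact permutation test did not separate (two-sided, p = 0.4, where the smallest p for 3 against 3 is 0.1). Without si-SCR replicate 1 the difference was 0.0059.

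COPZ1 was the only neighbour called higher. It lies at chr12:54301202-54351846 on the plus strand, 154 kb away, with counts of 400, 360 and 541 in the si-SCR libraries against 595, 534 and 517 in the si-CyCoNP libraries. On the FPKM scale these were 23.9, 24.5 and 29 against 31.8, 32.2 and 32.0. Each si-CyCoNP library was above each si-SCR library, and si-SCR replicate 3 was nearest to them. The log2 fold change was 0.24 (SE 0.091, 95% interval 0.054 to 0.43, edgeR adjusted p = 0.0482), a level of 118% of si-SCR. The call was close to the threshold. It held in 7 of 15 alternatives, with adjusted p-values from 0.0086 to 0.159, and was lost with DESeq2 (adjusted p = 0.0985), with DESeq2 size factors (adjusted p = 0.0529), with no filter (adjusted p = 0.0783), and without si-SCR replicate 1 or 2 or any 1 of the si-CyCoNP replicates, at log2 fold changes of 0.20 to 0.24 and adjusted p-values of 0.109 to 0.159.

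NFE2, an erythroid transcription factor of the CNC family, begins 186 bases from the outermost start of COPZ1 and points the other way, at chr12:54292111-54301015. It had 0 counts in 5 libraries and 1 count in si-CyCoNP replicate 3, and it was not tested. A count of 0 allows up to 3 counts, which is 0.625 to 0.797 CPM at these depths and covers counting error only. ZNF385A, which encodes an RNA-binding zinc finger protein and lies 222 kb away at chr12:54369133-54391298, measured 5.93, 5.35 and 6.51 FPKM in the si-SCR libraries against 6.75, 8.73 and 6.22 FPKM in the si-CyCoNP libraries. Only si-CyCoNP replicate 2 stood clearly above the si-SCR range. Its log2 fold change was 0.21 (95% interval -0.13 to 0.56, edgeR adjusted p = 0.380).

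CALCOCO1 was the only neighbour called lower. It encodes a receptor of selective autophagy of the endoplasmic reticulum and Golgi, and lies 398 kb away on the far side of the HOXC cluster, at chr12:53708517-53727745. It had counts of 65, 71 and 83 in the si-SCR libraries against 66, 45 and 39 in the si-CyCoNP libraries, or 1.70, 2.12 and 1.95 FPKM against 1.55, 1.19 and 1.06 FPKM. The groups did not overlap on the FPKM scale, although si-CyCoNP replicate 1 lay close to si-SCR replicate 1. The log2 fold change was -0.66 (SE 0.198, 95% interval -1.07 to -0.25, edgeR adjusted p = 0.0129), a level of 63.3% of si-SCR. It held in 10 of 15 alternatives and was lost without si-SCR replicate 2 (adjusted p = 0.0564), without si-CyCoNP replicate 2 (adjusted p = 0.0520) or 3 (adjusted p = 0.0652), and in limma on log2(FPKM + 1) (log2 fold change -0.37, adjusted p = 0.150) and log2(FPKM + 0.1) (log2 fold change -0.58, adjusted p = 0.132). With under 100 counts in every library it was one of the shallower neighbours.

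HOTAIR, at chr12:53962308-53974956 and 151 kb away, measured 4.83, 5.01 and 5.30 FPKM in the si-SCR libraries against 3.44, 4.61 and 3.52 FPKM in the si-CyCoNP libraries. The groups did not overlap, with si-CyCoNP replicate 2 nearest to the control range. The log2 fold change was -0.46 (95% interval -0.89 to -0.028), and HOTAIR did not pass the test after adjustment (edgeR unadjusted p = 0.0377, adjusted p = 0.107). Over 15 alternatives its log2 fold change stayed negative, from -0.60 to -0.32, with adjusted p-values from 0.0717 to 0.279. It shares 166 exon bases with genes of the opposite strand, which stranded counting keeps apart.

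HOXC-AS1, an antisense transcript inside the HOXC cluster at chr12:53999022-54000010, gave 2, 2 and 2 counts over the si-SCR libraries against 10, 1 and 2 in the si-CyCoNP libraries. It passed the filter on low values only through the si-CyCoNP group, and there through replicate 1 alone, so its presence among the tested genes is no support for a change. The ratio of summed counts per total was 2.11 (exact 95% interval 0.748 to 6.76, counting error only), and the gene was not called (edgeR adjusted p = 0.466).

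**Figure D2:**
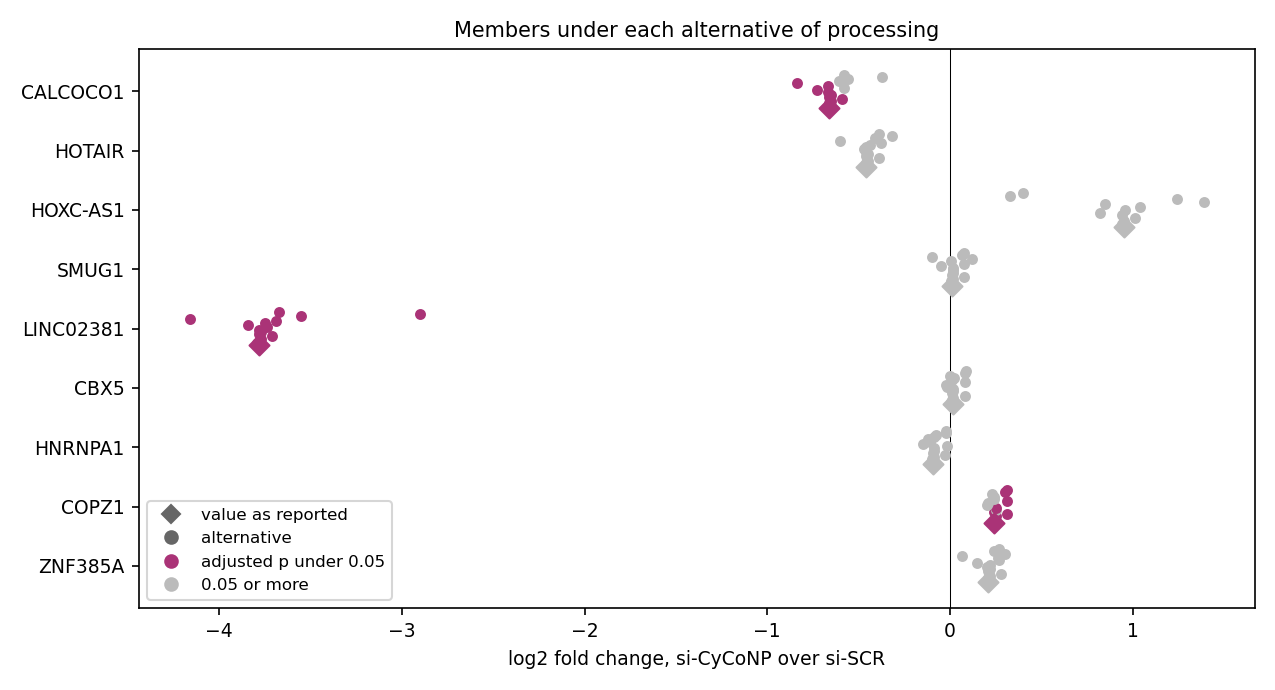
Log2 fold change of si-CyCoNP over si-SCR for each tested member as reported (diamond) and under each alternative of scaling, filter, test or left-out library (circles), in purple where the adjusted p was under 0.05. LINC02381 lay between -4.16 and -2.90 throughout, COPZ1 and CALCOCO1 passed the threshold in 7 and 10 of 15 alternatives, and the other members in none.

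Since FPKM scales each count by gene length, the members can be ordered by level. In si-SCR the order of mean FPKM was HNRNPA1 (167), CBX5 (52.5), COPZ1 (25.8), LINC02381 (14.4), ZNF385A (5.93), HOTAIR (5.05), SMUG1 (3.72), CALCOCO1 (1.92), HOXC-AS1 (0.797) and NFE2 (0), and no 2 neighbours in this order had overlapping libraries. In si-CyCoNP, LINC02381 went from rank 4 to rank 9. HNRNPA1 (164), CBX5 (55.5), COPZ1 (32.0) and ZNF385A (7.24) kept their order above it without overlap. SMUG1 (3.94) and HOTAIR (3.86) overlapped there, as did each next pair among HOTAIR, HOXC-AS1 (1.58), CALCOCO1 (1.26) and LINC02381 (1.1). On this scale, and with the length used, LINC02381 thus dropped to the level of the lowest tested neighbours.

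The region was then read without regard to the chosen members. Within 1 Mb of LINC02381 the annotation holds 106 other genes, of which 65 had a count and 38 passed the filter. Of these 38, 3 were called higher and 4 lower, which is 18.4% beside 28.4% of all tested genes and 30.4% of the 740 tested genes of chromosome 12 that lie farther off. In edgeR none passed the stricter rule with an absolute log2 fold change above 1. The median log2 fold change was -0.051. Of the 38, 28 were protein-coding and held all 7 calls.

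By distance, 0 of 6 tested genes within 100 kb were called by edgeR, and DESeq2 called none of them either. They were SMUG1, CBX5, HOXC4, HOXC5, HOXC6 and MIR615, of which 1, HOXC4, had an unadjusted edgeR p under 0.05 (0.0381). So had at least the 28.4% of all tested genes that edgeR called. MIR615, with a mean of 0.833 counts per library, and HOXC5, with 12.2, had little depth for a call. The counts were 2 of 12 from 100 to 250 kb, 2 of 3 from 250 to 500 kb and 3 of 17 from 500 to 1000 kb. Farther out they were 7 of 24 from 1 to 2 Mb, 33 of 103 from 2 to 5 Mb and 185 of 613 over the rest of the chromosome. The 250 to 500 kb bin rests on 3 genes, of which CALCOCO1 and ATP5MC2 were called.

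**Figure D3:**
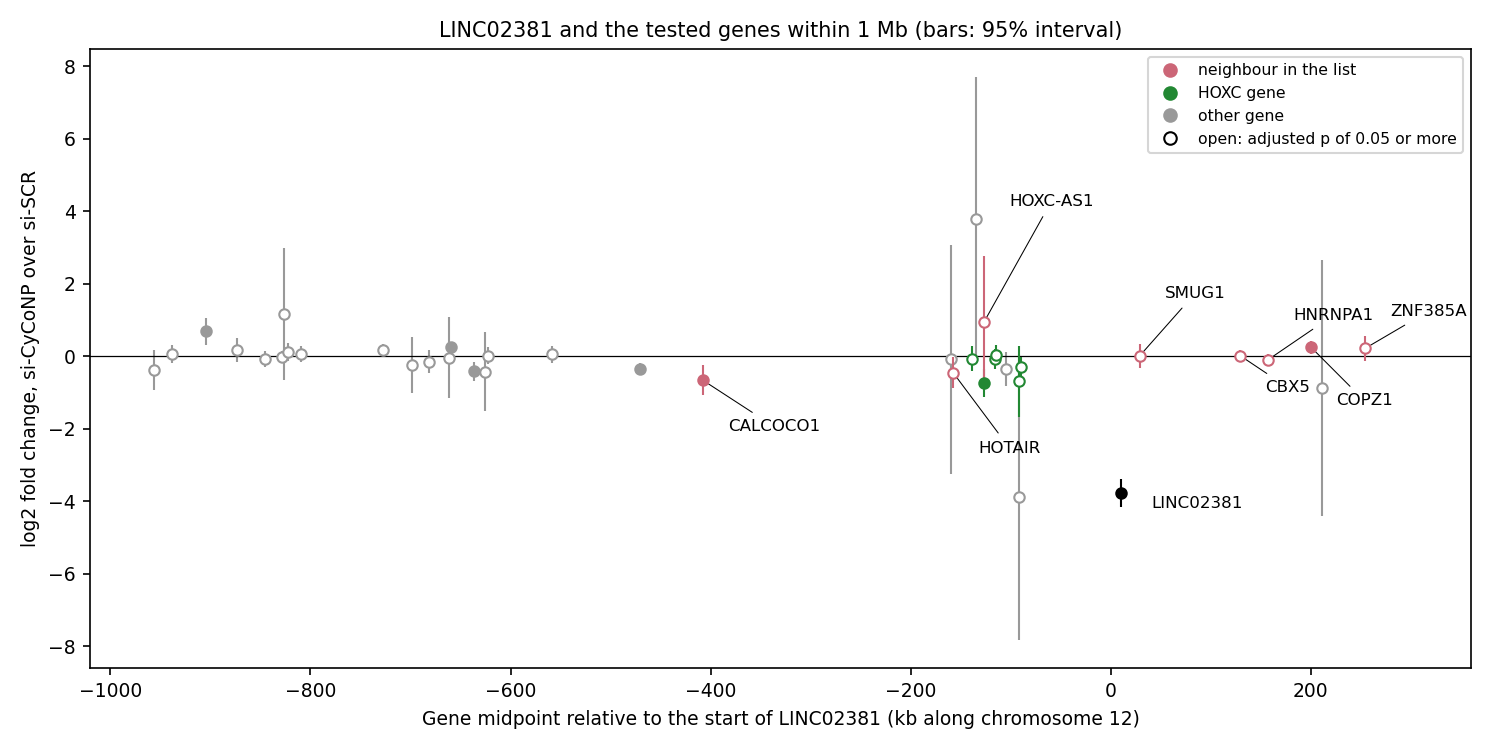
Log2 fold change of si-CyCoNP over si-SCR, with 95% intervals, for LINC02381 (black) and the 38 tested genes within 1 Mb, against the position of the gene's midpoint relative to the start of LINC02381 in kb. Filled symbols have an adjusted p under 0.05. LINC02381 lies at -3.78, and the other extreme points, MIR615 and MIR196A2, rest on 5 counts each, so that their place depends on the prior count, and were not called by edgeR, while MIR196A2 was called in both limma fits.

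**Figure D4:**
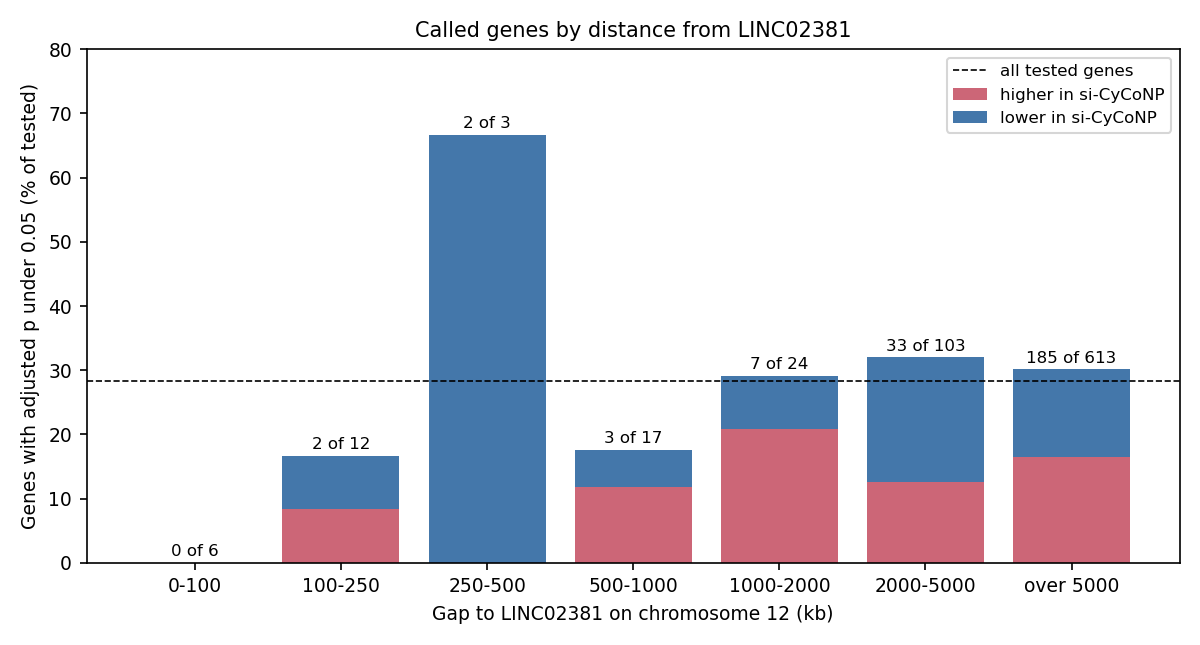
Share of tested genes on chromosome 12 called higher (red) or lower (blue) in si-CyCoNP, in percent, by the gap to LINC02381 in kb, with the called and tested numbers above each bar and the 28.4% of all tested genes as a dashed line. The share was 0 of 6 in the nearest bin and 185 of 613 beyond 5000 kb.

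Of the 30 tested genes outside the chosen members and within 1 Mb, 5 were called, which is 16.7% beside 28.4% of all tested genes. RARG, which encodes the retinoic acid receptor gamma, lies 893 kb away. It measured 2.41, 2.28 and 2.41 FPKM in the si-SCR libraries against 4.63, 3.99 and 3.29 FPKM in the si-CyCoNP libraries, without overlap, for a fold change on the log2 scale of 0.68 (SE 0.184, edgeR adjusted p = 0.00582), and it was not called without si-CyCoNP replicate 1 (log2 fold change 0.55, adjusted p = 0.0572).

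ATP5MC2, a subunit of mitochondrial ATP synthase 449 kb away, went from 55.0 ± 0.813 to 45.2 ± 3.85 FPKM (SD, n = 3), at a fold change on the log2 scale of -0.35 (SE 0.084, edgeR adjusted p = 0.00241), and was called under all 15 alternatives. HOXC9, a homeobox gene 123 kb away whose body overlaps that of HOXC-AS1 on the opposite strand, went from 13.9 ± 3.04 to 8.73 ± 2.08 FPKM at a fold change on the log2 scale of -0.74 (edgeR adjusted p = 0.00393), and it was not called in either limma fit (adjusted p of 0.0673 and 0.0664). MAP3K12, a kinase of axonal stress signalling, reached -0.42 on the log2 scale (edgeR adjusted p = 0.0102) and was not called without si-CyCoNP replicate 2 (log2 fold change -0.34, adjusted p = 0.0767) or in limma (adjusted p of 0.0857 and 0.0903). PCBP2, a poly(C)-binding protein, reached 0.24 (edgeR adjusted p = 0.0201) and was not called without si-SCR replicate 2 (log2 fold change 0.20, adjusted p = 0.111) or any 1 of the si-CyCoNP replicates (0.23 to 0.25, adjusted p from 0.0529 to 0.0707).

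HOXC4, the nearest tested gene on the HOXC side at 70.0 kb, gave 173, 133 and 237 counts over the si-SCR libraries against 170, 170 and 134 in the si-CyCoNP libraries. The groups overlapped. Its log2 fold change was -0.29 (95% interval -0.56 to -0.017, edgeR adjusted p = 0.108), and it was called only without si-SCR replicate 2 (log2 fold change -0.38, adjusted p = 0.048). Of the 9 protein-coding HOXC genes 6 were tested and HOXC9 alone was called, which is 16.7% beside 28.4% of all tested genes.

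The genes that work with the products of the members were read next, from 8 lists written from general knowledge. Of 88 genes 83 were tested, and 21 were called higher and 12 lower, which is 39.8% beside 28.4% of all tested genes. The share over all genes depends on the filter, at 33% with the default filter of edgeR and 15.1% with no filter. The lists were not matched to all tested genes in depth, and they were chosen with earlier results known. The difference is therefore not read as a trait of these genes. With library totals alone in place of TMM scaling the split was 27 higher and 8 lower, and that of all tested genes moved from 1982 higher and 1990 lower to 2465 and 1574. It was 1765 and 1118 in limma with a pseudocount of 1 and 1753 and 1113 with 0.1.

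Around CBX5, the other genes of HP1 moved in opposite directions. CBX1, for HP1 beta, went from 23.8 ± 4.10 to 37.7 ± 2.7 FPKM (SD, n = 3) at a fold change on the log2 scale of 0.59 (SE 0.105, edgeR adjusted p = 9.24e-05). CBX3, for HP1 gamma, went from 58.4 ± 2.68 to 45.9 ± 1.59 FPKM with -0.42 (SE 0.081, edgeR adjusted p = 0.000259). In both, the groups did not overlap. SUV39H2, a histone H3 methyltransferase, rose (0.57) and the chromatin remodeller ATRX fell (-0.54). Of the 14 genes of the list 4 were called higher and 2 lower, which is 42.9% beside 28.4% of all tested genes, with a median of 0.12. CBX5 itself was the HP1 gene whose level was not called different.

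Around HNRNPA1, 4 of 13 genes of the hnRNP A/B family and close splicing partners were called higher and 2 lower. That is 46.2%, beside 28.4% of all tested genes, and the median log2 fold change was 0.13. HNRNPDL rose from 43.5 ± 4.22 to 60.4 ± 6.45 FPKM (log2 fold change 0.41, edgeR adjusted p = 0.001). PTBP1 (0.24), HNRNPA0 (-0.26) and the nuclear import receptor TNPO1 (-0.28) were called with smaller changes. PTBP1 lost its call without si-CyCoNP replicate 1 (0.24) or 3 (0.20) and without replicate 2 of si-SCR (0.17). HNRNPA0 lost its call without replicate 1 of si-SCR (-0.22) or replicate 2 of si-CyCoNP (-0.25). TNPO1 lost its call without replicate 1 (-0.17) or 2 (-0.27) of si-SCR and without replicate 2 (-0.25) or 3 (-0.27) of si-CyCoNP. Neither was called in limma or under library totals alone, where their log2 fold changes were -0.19 and -0.21.

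Around COPZ1, 2 of 13 COPI genes were called, both higher, with a median log2 fold change of 0.031. COPE, another coat subunit, rose from 16.7 ± 2.28 to 25.3 ± 1.20 FPKM (log2 fold change 0.54, edgeR adjusted p = 0.000548) and GBF1, the exchange factor that recruits the coat, from 17.3 ± 2.01 to 25.3 ± 1.58 FPKM (0.48, edgeR adjusted p = 0.000196). The share called in this list, 15.4%, was below the background, and in both genes the groups did not overlap.

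Around CALCOCO1, 2 of 13 autophagy receptors and ATG8 genes were called higher and 4 lower, which is 46.2% beside 28.4% of all tested genes. The median log2 fold change was -0.16, and 3 passed the stricter rule, as did 5.26% of all tested genes. GABARAPL1, an ATG8 protein, rose from 4.34 ± 0.0723 to 12.6 ± 0.958 FPKM (log2 fold change 1.47, edgeR adjusted p = 3.46e-09). OPTN, a receptor of mitophagy, fell from 2.96 ± 0.542 to 0.998 ± 0.158 FPKM (-1.62, edgeR adjusted p = 8.56e-06), and RETREG1, a receptor for the endoplasmic reticulum, from 1.91 ± 0.495 to 0.861 ± 0.309 FPKM (-1.20, edgeR adjusted p = 0.00461), although RETREG1 was not called in either limma fit (adjusted p of 0.0832 and 0.0782). TAX1BP1, a close relative in sequence, rose (0.42), whereas CALCOCO2, also in the list, was called lower (-0.46, edgeR adjusted p = 0.0184). OPTN and RETREG1, both among those past the stricter rule, averaged under 1 FPKM in si-CyCoNP. They passed the filter on low values only through si-SCR, so their presence among the tested genes is no support for a fall. The list thus held larger changes than CALCOCO1 in both directions, with the larger falls resting on OPTN and RETREG1.

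The remaining lists were smaller or mixed. Of 12 base excision repair genes around SMUG1, 2 were called higher and 1 lower (25%), led by UNG, the main uracil glycosylase, which rose from 16.7 ± 3.42 to 28.4 ± 4.33 FPKM (log2 fold change 0.69, edgeR adjusted p = 0.000193). PARP1 (0.24) and XRCC1 (-0.36) passed the threshold in 8 and 3 of 15 alternatives. PARP1 was not called without replicate 1 (0.19) or 2 (0.20) of si-SCR, nor without replicate 1 (0.23) or 3 (0.19) of si-CyCoNP, nor XRCC1 without any 1 of the 6 libraries (-0.40 to -0.33), and DESeq2 called neither. Of 12 genes of the PRC2 and LSD1 complexes named for HOTAIR, 3 were called higher and 2 lower, which is 41.7% beside 28.4% of all tested genes. RCOR1 (-0.70) and PHF19 (-0.45) fell, and RBBP4 (0.34) and MTF2 (0.39, not called without si-SCR replicate 3, at 0.30 and an adjusted p of 0.0693) rose. Among the relatives and partners of NFE2, 6 of 8 genes were tested, 4 were called higher and 1 lower, which is 83.3% of those 6, beside 28.4%. NFE2L1 (0.51), MAFG (0.57) and MAFF (0.55) rose, and NFE2L2, the regulator of the oxidative stress response, fell (-0.46). MAFF was not called by DESeq2 or limma, nor without replicate 1 of si-SCR (0.38), nor without replicate 2 (0.51) or 3 (0.51) of si-CyCoNP. None of the 3 relatives of ZNF385A passed the filter.

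**Figure D5:**
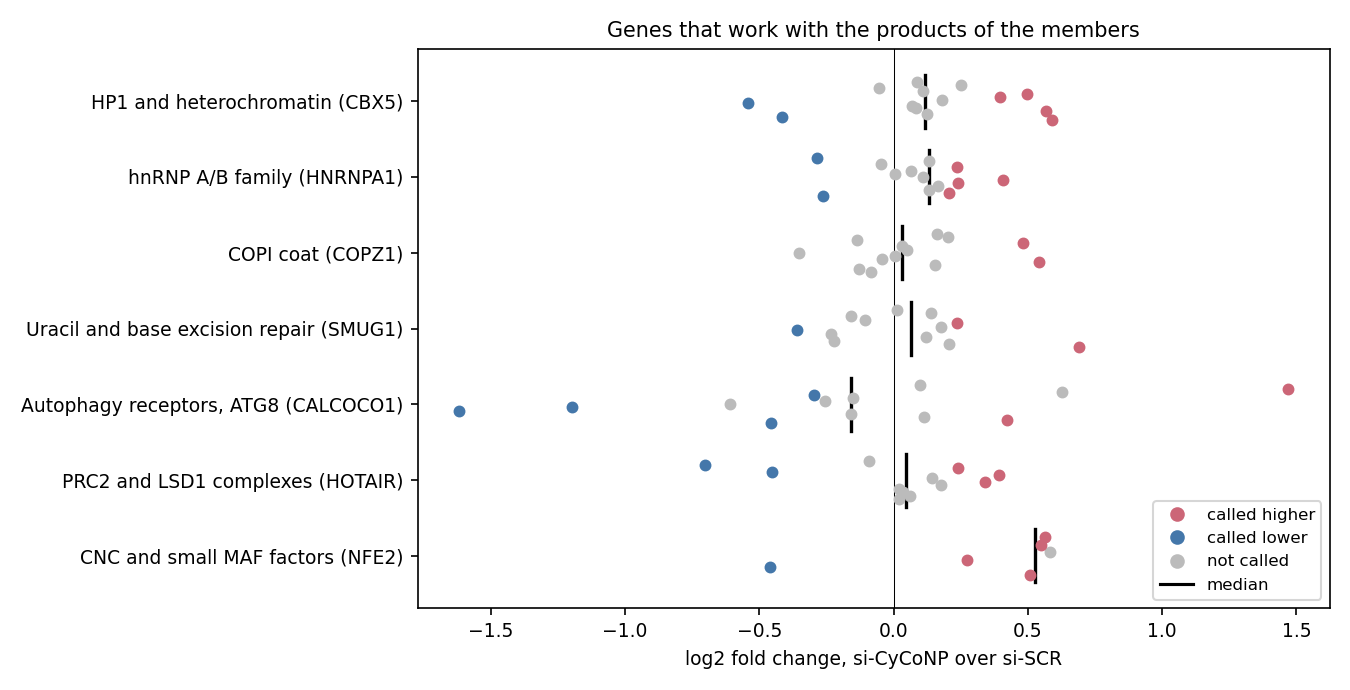
Log2 fold change of si-CyCoNP over si-SCR for the tested genes of 7 lists, each named with its member in brackets, with called genes in red (higher) or blue (lower), other genes in grey and the list's median as a black line. Medians lay between -0.16 and 0.53, and the widest spread, from -1.62 to 1.47, was that of the autophagy list.

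The genes whose log2 CPM followed LINC02381 most closely over the 6 libraries were ZDBF2 (Pearson r = 0.9995), STRIP2 (0.9989) and TNRC18 (0.9986). Their levels went from 10.5 to 5.72, 3.52 to 2.36 and 8.76 to 5.76 FPKM, log2 fold changes of -0.94, -0.64 and -0.67. For CALCOCO1 they were TMED1 (0.9914), WLS (0.9904) and BCORL1 (0.9898). These are descriptions over 6 points that share 2 groups and their library depths, so that any gene with a clear group difference comes near 1.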

How the data were processed

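The authors prepared stranded, ribosomal RNA-depleted libraries, trimmed reads with Trimmomatic 0.39 and Cutadapt 3.2, removed ribosomal reads with Bowtie2 2.4.2 and aligned the rest to GRCh38 with STAR 2.7.7a, which counted uniquely mapped fragments per Ensembl gene. The deposited tables hold raw counts, and FPKM values that the authors scaled by gene length and library total. Counts and FPKM implied 1 gene length across libraries, within 1%, for 22586 of 22586 genes checked. Of 60676 identifiers, 60357 matched GENCODE.

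Genes averaging 1 FPKM or more in si-SCR or in si-CyCoNP (13966) were tested in R 4.3.3 with edgeR 4.0.16 (TMM, quasi-likelihood test, Benjamini-Hochberg adjustment over all tested genes). The study's methods named DESeq2, run here as an alternative (1.42.0). A supplementary legend of the study named the likelihood ratio test of edgeR, which was not run. Further alternatives were other scalings and filters, a replicate block, left-out libraries and limma 3.58.1 on log2 FPKM. The members and lists were chosen with earlier results of these data known. Named were all members, called genes within 1 Mb (at most 10) with the nearest tested gene on each side, at most 4 called genes per list by smallest p, and 3 most correlated genes. CALCOCO2 was named beside these. The script was tested on simulated data.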

Additional observations from a re-analysis of the deposited data

How the results depend on the processing

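LINC02381 was called lower under all 15 alternatives, with log2 fold changes from -4.16 to -3.55 when a library was left out. Among the 9 neighbours, the count called higher was 0 with DESeq2, with DESeq2 size factors and with no filter, and 0 to 1 without each library in turn. The count called lower was 0 in limma with either pseudocount (1 or 0.1), and 0 to 1 without each library. Leaving out a library also turned SMUG1 to -0.047 and -0.10, in a range of -0.10 to 0.12, and CBX5 to -0.016 and -0.024, in a range of -0.024 to 0.084, neither of which was called in any alternative. Without each library in turn, those within 1 Mb numbered 0 to 4 higher and 2 to 4 lower. There, 1 was called lower with either limma fit, 1 higher and 1 lower in a window of 250 kb, and 8 higher in a window of 2 Mb. These windows had 11.1% and 22.6% of their tested genes called, beside 28.4% of all. The share of all tested genes called moved as well. It was 23.1 to 31.2% without each library, 22.2% with DESeq2, 15.1% with no filter, and 20.6% and 20.5% in limma. Partner genes called lower numbered 6 with either limma fit. The cause of these moves was not tested, beyond the smaller samples and other windows themselves. With the replicate block, 4771 genes were called in place of 3972, COPZ1 and CALCOCO1 were again the called members, LINC02381 had an adjusted p of 2.25e-33, and the block changed no other count of calls by over 1.5 times. Same-numbered libraries of the groups deviated together with correlations of 0.0907, 0.0727 and 0.108, so the numbers were not taken as pairs.

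The same alternatives were run on 38 other named genes after the data had been seen. No direction turned, and 22 of the 37 called genes were called in every one of them. Depth limits what can be said of the rare transcripts. NFE2 and HOXC-AS1 had at most 10 counts per library, and the 95% interval of CALCOCO1 ran from 47.7 to 84.0% of its si-SCR level and that of SMUG1 from 80.5 to 126%.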

Other observations

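CBX5 and HNRNPA1 have a counterpart on chromosome 7, where the relatives CBX3 and HNRNPA2B1 also start head to head, at 26201162 on the plus strand and 26201529 on the minus strand of GRCh38, with gene bodies that overlap by 368 bases. The pair was looked at after its values had been seen. CBX3 measured 61.3, 56.0 and 57.8 FPKM in the si-SCR libraries against 45.4, 44.6 and 47.6 FPKM in the si-CyCoNP libraries, and HNRNPA2B1 92.0, 81.6 and 91.4 FPKM against 107, 105 and 108 FPKM. One gene of the pair was lower and the other higher in every si-CyCoNP library, with log2 fold changes of -0.42 (edgeR adjusted p = 0.000259) and 0.21 (edgeR adjusted p = 0.0393). The call for HNRNPA2B1 was lost without si-SCR replicate 2 (log2 fold change 0.16, adjusted p = 0.187) or any 1 of the si-CyCoNP replicates (0.19 to 0.22, adjusted p from 0.063 to 0.134). The log2 ratio of CBX3 to HNRNPA2B1 counts was -1.52, -1.48 and -1.6 in the si-SCR libraries against -2.18, -2.18 and -2.12 in the si-CyCoNP libraries, a difference of -0.62 (exact permutation test, two-sided, p = 0.1, the smallest this design allows), beside 0.11 for CBX5 and HNRNPA1.

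Some transcripts next to LINC02381 were too rare to test, and they are named for their position and after their values had been seen. FAM242C, which starts 27 bases from LINC02381 on the other strand, gave 0, 0 and 5 counts over the si-SCR libraries against 0, 2 and 0 in the si-CyCoNP libraries. FLJ12825, on the same strand 3784 bases before LINC02381, had 2, 6 and 4 counts against 9, 10 and 3. ITGA5, an integrin gene 248 kb away, had 12, 13 and 7 counts against 17, 21 and 16. With no filter on low values their adjusted p-values in edgeR were 0.617, 0.563 and 0.365.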
